A study of Homo sapiens with 6 samples.

Results

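The region described here is the MYC and PVT1 domain on 8q24, taken as all peaks with a summit on hg19 chromosome 8 from 126.5 to 130.8 Mb in 3 deposited lists of chromatin immunoprecipitation sequencing (ChIP-seq) peaks. It held 44 of 35687 peaks, namely 15 of 9769 BRD8 peaks in Calu3, 9 of 9505 BRD8 peaks in 16HBE14o- and 20 of 16413 CTCF peaks in Calu3. Calu3 is a human lung adenocarcinoma line and 16HBE14o- a human bronchial epithelial line. Both were grown untreated in DMEM with fetal bovine serum, with 2 replicates per experiment (6 samples), and nothing in the labels says that replicates came from separate cultures. BRD8 was precipitated with the same Active Motif antibody in both lines, and CTCF with a Millipore antibody in Calu3. CTCF in 16HBE14o- was not analysed here, so "CTCF" below always means Calu3 CTCF.

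MYC encodes a transcription factor that drives cell growth and is among the genes most often gained in human tumours. The neighbouring PVT1 gene makes a long noncoding RNA and is often gained together with MYC. MYC lies in a gene-poor region and receives input from enhancers far away on both sides. CTCF is a zinc finger protein that holds chromatin loops and insulators in place, and a CTCF site just upstream of the MYC promoter is a known anchor for such enhancer loops. BRD8 reads chromatin through a bromodomain as part of the NuA4/TIP60 histone acetyltransferase complex, which acts at promoters and enhancers. TRIB1 encodes a pseudokinase that steers proteins to degradation.

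Each list is the authors' pooled result from 2 replicates. No spread between replicates can therefore be given, and the sequencing depth behind the lists is unknown. Where a list has no peak, the protein may still be present below the calling threshold. Peak strength is given as the authors' signal and as its percentile within its own list, where 100 is the strongest end. Because the lists may differ in signal scale, signals were not compared across them. Peak density in the domain was close to that of the remainder of the chromosome. Calu3 BRD8 had 3.49 peaks per Mb in the domain, 3.17 on the rest of chromosome 8 and 3.22 in the whole list. For 16HBE14o- BRD8 the densities were 2.09, 2.43 and 3.13 peaks per Mb, and for CTCF they were 4.65, 5.1 and 5.41 peaks per Mb.

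The peaks were unevenly placed. Before MYC, more than 200 kb on the centromeric side, lay 11 Calu3 BRD8, 6 16HBE14o- BRD8 and 13 CTCF peaks. Within 200 kb of MYC there were 2 Calu3 BRD8, 3 16HBE14o- BRD8 and 4 CTCF peaks. Beyond, on the telomeric side, there were 2 Calu3 BRD8 peaks, 0 16HBE14o- BRD8 peaks and 3 CTCF peaks. The peaks within 200 kb of MYC lay between stretches of 849 kb and 1.51 Mb in which no list had a summit.

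**Figure D1:**
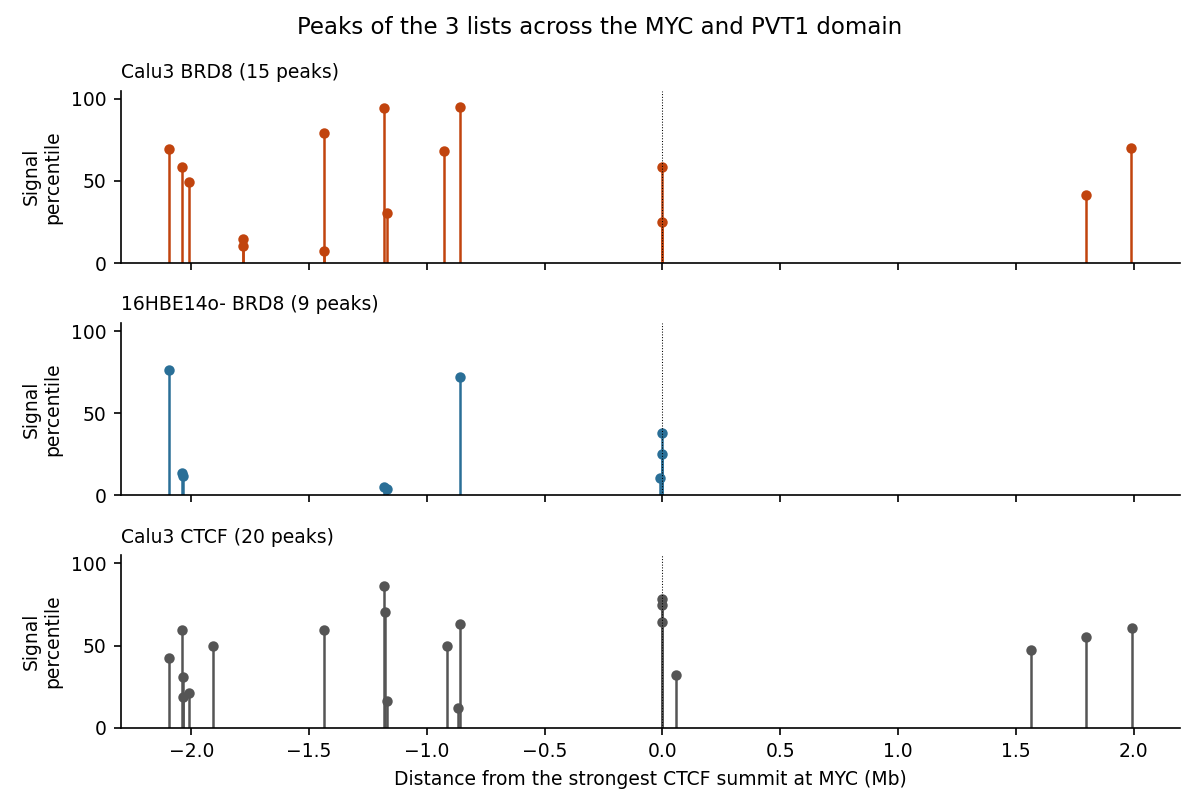
Each stem is 1 peak of the domain. The horizontal axis is the distance in Mb from the strongest CTCF summit at MYC, and the vertical axis is the percentile of the authors' signal within the whole list. All 3 lists have peaks at MYC, and 16HBE14o- BRD8 has none to the right of it.

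MYC carried 3 CTCF peaks within 3.7 kb, all in the upper 50% of the CTCF list. The first covered 128746201 to 128746490 on chromosome 8, with a signal of 72.3 (percentile 74.6). The second covered 128748370 to 128748659, with a signal of 47.8 (percentile 64.3). The third was the strongest and narrowest, covering 128750004 to 128750133 over 130 bp, with a signal of 88.4 (percentile 78.6). MYC is transcribed in the direction of rising coordinates, so these are listed in the direction of transcription. The position of MYC was given only as 128.75 Mb, to the nearest 10 kb. Which of the 3 peaks lie upstream or in the gene, and whether any covers the start site, was therefore not resolved here.

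The 3 CTCF peaks differed in which line had BRD8. At the first, BRD8 was listed in both lines. The Calu3 peak there covered 128746014 to 128746489 (signal 35.3, percentile 58.2) and the 16HBE14o- peak 128746261 to 128746484 (signal 26.6, percentile 37.8). Their summits were 94 and 27 bp from the CTCF summit. At the second, BRD8 was listed in Calu3, from 128748341 to 128748816 (signal 24.6, percentile 25.2, 64 bp from the CTCF summit), and not in 16HBE14o-. At the third it was the reverse: a 16HBE14o- peak covered 128749930 to 128750153 (signal 24.2, percentile 25.1), its summit 8 bp from that of CTCF, and the nearest Calu3 BRD8 summit was 1.47 kb away. The strongest CTCF peak at MYC was thus the one with no Calu3 BRD8 peak, in the line in which CTCF was mapped. In the whole CTCF list 36.1% of peaks carried Calu3 BRD8, so lacking it was the more common state. Each of the 4 BRD8 peaks at the CTCF peaks of MYC had a lower percentile in its list than the CTCF peak under it. Percentiles rank a peak within its own list, and the lists differ in length. A difference of percentiles between lists therefore compares standing and not the amount of protein. Elsewhere in the domain the order could be the reverse. At 127.889 Mb the percentiles were 95.1 for Calu3 BRD8, 72.1 for 16HBE14o- BRD8 and 63.4 for CTCF.

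A further 16HBE14o- BRD8 peak lay upstream at 128738041 to 128738264 (signal 21.4, percentile 10.6). It met neither CTCF nor Calu3 BRD8, and the nearest summits of those lists were 8.19 and 8.1 kb away.

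**Figure D2:**
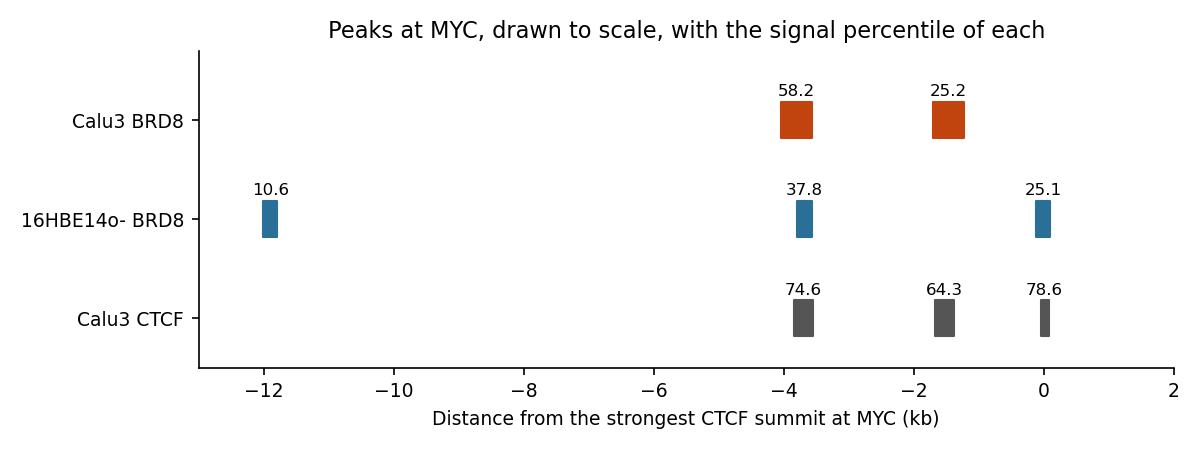
Boxes are peaks at MYC drawn to scale, by distance in kb from the strongest CTCF summit there, and the number over each is its signal percentile within its list. BRD8 is present in both lines at the left CTCF peak, in Calu3 at the middle one and in 16HBE14o- at the right one.

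CTCF regions with 2 or more close neighbours were uncommon in the list. Of 16071 CTCF regions, counted after merging overlapping peaks, 805 (5.01%) had 2 or more others within 5 kb. In the domain 4 of 20 did, the 3 at MYC and 1 at 126.713 Mb. These counts are of regions and not of groups, and the 3 at MYC belong to 1 group. Since neighbours were counted on either side, a region can qualify in a group wider than that at MYC. The distance of 5 kb was chosen after the positions were seen.

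At PVT1, none of the 3 lists had a summit from 128.81 to 129.11 Mb, the span given for the gene. The closest peak was a weak CTCF peak at 128806690 to 128806979 (signal 26.3, percentile 32.2). Its summit lay 3.16 kb before the given start. Because that start is known to the nearest 10 kb, whether the peak lies before the gene, at its promoter or inside it was not resolved. BRD8 was not listed there in either line, the nearest Calu3 and 16HBE14o- summits being 58.3 and 56.8 kb away, at MYC.

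From that CTCF peak to the next, at 130.316 Mb, no list had a summit for 1.51 Mb. In the CTCF list 1.83% of 16048 distances between neighbouring regions were at least as long, and on chromosome 8 this one ranked 18 of 721. BRD8 had still longer empty stretches from MYC onward. In Calu3 the next BRD8 summit after MYC was 1.8 Mb away (4.1% of 8161 distances at least as long), and in 16HBE14o- it was 2.08 Mb away, beyond the edge of the region (2.55% of 9481). The 1.51, 1.8 and 2.08 Mb distances were each the longest of their list in the domain. Each share is thus that of a picked extreme, and does not say how often a domain holds such a distance. On the other side, no list had a summit between 127.889 and 128.738 Mb, a stretch of 849 kb. The CTCF distance across it was 857 kb, and 3.87% of CTCF distances were at least as long. For BRD8 the shares were 8.23% in Calu3 (857 kb) and 7.64% in 16HBE14o- (849 kb). In 16HBE14o- a longer BRD8 distance, 854 kb from 126.715 to 127.569 Mb, lay elsewhere in the domain. The median distance between neighbours was 91 kb for Calu3 BRD8, 86.7 kb for 16HBE14o- BRD8 and 52.6 kb for CTCF. The distances of a whole list include those across centromeres.

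**Figure D3:**
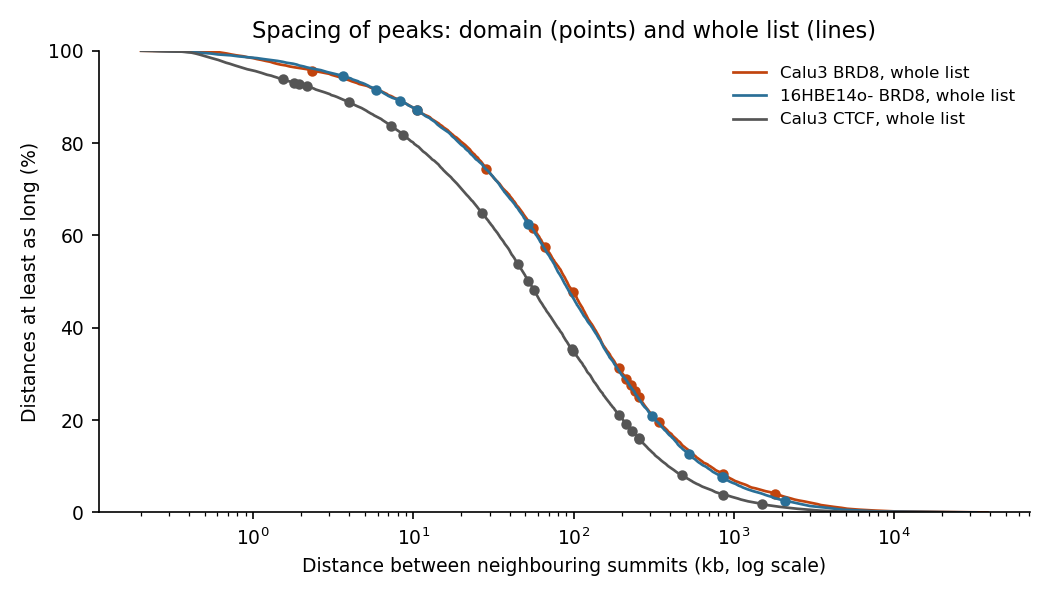
Lines give, for each whole list, the percentage of distances between neighbouring summits at least as long as the value on the log-scaled horizontal axis (kb). Points are the distances of the domain. The rightmost points are the 2.08 Mb, 1.8 Mb and 1.51 Mb stretches, which begin at MYC or at the CTCF peak closest to the given PVT1 start.

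The centromeric side held the strongest peak of the domain in each of the 3 lists. A RefSeq gene table on another build (GRCh38.p14), used for gene names and order only, places 29 genes between TRIB1 and MYC, of which 2 are protein coding, LRATD2 and POU5F1B, and 19 are long noncoding RNAs. MYC and PVT1 are direct neighbours in that order. Peaks could not be assigned to the genes between TRIB1 and MYC for want of their hg19 positions.

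The strongest CTCF peak of the domain was at 127568667 to 127568873, with a signal of 132 (percentile 86). BRD8 was listed there in both lines, with summits 6 bp from that of CTCF in Calu3 and 16 bp in 16HBE14o-. The BRD8 peak stood very differently in the lists of the lines. In Calu3 it was at percentile 94.3 (rank 559), whereas in 16HBE14o- it was at percentile 5.08 (rank 9023). The signals, 76.6 and 20, may be on different scales and are not compared. The Calu3 percentile exceeded that of 16HBE14o- by 89.2 points, and of 4890 Calu3 BRD8 peaks shared with 16HBE14o-, 14 (0.286%) had a difference at least as large. This site was singled out after its values were seen. A CTCF peak 1.94 kb further on, at 127.571 Mb (signal 59.2, percentile 70.2), had no BRD8 in either line. Another at 127.579 Mb was weak (signal 21.2, percentile 16.3) and had weak BRD8 peaks in both lines, at percentile 30.4 in Calu3 and 3.96 in 16HBE14o-.

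The strongest Calu3 BRD8 peak was at 127888796 to 127889271 (signal 81.5, percentile 95.1). It was shared with 16HBE14o- (signal 35.8, percentile 72.1) and lay on a CTCF peak of signal 46.5 (percentile 63.4). This was the last site before the empty 849 kb that lead to MYC. CTCF peaks at 127.837 and 127.882 Mb, at percentiles 49.6 and 12.2, had no BRD8. A Calu3 BRD8 peak at 127.822 Mb (percentile 68) had no CTCF, the nearest CTCF summit being 14.5 kb away.

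Further from MYC, a CTCF peak at 127.313 Mb (signal 41.9, percentile 59.6) carried BRD8 in Calu3 at percentile 79.4, with a weak second Calu3 peak (percentile 7.3) called on its shoulder 247 bp away. The nearest 16HBE14o- BRD8 summit was 255 kb away. A pair of overlapping Calu3 BRD8 peaks at 126.970 Mb, at percentiles 14.5 and 10.2, met no CTCF, and the nearest CTCF summit was 129 kb away. After overlapping peaks were merged, the 15 Calu3 peaks were 13 regions.

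A second close group of CTCF peaks lay at 126.709, 126.713 and 126.715 Mb. In this group BRD8 was listed in 16HBE14o- at the outer CTCF peaks, with percentiles of 13.8 and 11.9, and in Calu3 at the middle one, with a percentile of 58.7. The CTCF percentiles were 59.5, 18.9 and 30.9 from left to right. Beside this group, a CTCF peak at 126.742 Mb (percentile 21.1) had BRD8 in Calu3 (percentile 49.2), and one at 126.841 Mb (percentile 49.9) had none.

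The outermost peak towards TRIB1 was a site of all 3 lists at 126.657 Mb. Its percentiles were 69.3 for Calu3 BRD8, 76.5 for 16HBE14o- BRD8 and 42.7 for CTCF, and it was the highest 16HBE14o- BRD8 peak of the domain. TRIB1 itself lies on the centromeric side of the region's edge. The nearest CTCF peaks outside the edge on that side were at 126.443 Mb (percentile 15.3) and 126.444 Mb (percentile 71). Calu3 BRD8 had overlapping peaks at 126.443 and 126.444 Mb, at percentiles 12.6 and 32.8, both on the weaker CTCF peak. The nearest 16HBE14o- BRD8 summits to them were 214 and 213 kb away. In 16HBE14o- the nearest peak outside was at 126.131 Mb (percentile 55.4).

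On the telomeric side, CTCF peaks stood at 130.316, 130.548 and 130.741 Mb, at percentiles 47.2, 55 and 60.7. The one at 130.548 Mb carried BRD8 in Calu3 (percentile 41.7). A Calu3 BRD8 peak at 130.739 Mb (percentile 70.1) lay 2.3 kb from the last CTCF summit without overlapping it. Just outside this edge, the nearest Calu3 BRD8 and CTCF peaks were both at 130.839 Mb, with percentiles of 70.2 and 69, and overlapped a 16HBE14o- BRD8 peak. The first 16HBE14o- BRD8 peak past the edge was at 130.833 Mb (percentile 44).

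BRD8 was listed in at least one line at 13 of the 20 CTCF peaks of the domain. In Calu3, 10 of 20 CTCF peaks of the domain carried BRD8, or 50% (95% Clopper-Pearson interval 27.2 to 72.8%), against 36.1% of the whole list. With 16HBE14o- BRD8, 8 of 20 did, or 40% (19.1 to 63.9%), against 38% of the whole list. Both lines had BRD8 at 5 of 20 CTCF peaks, or 25% (8.66 to 49.1%), against 21.8% of the whole list. BRD8 in Calu3 alone was listed at 5, or 25% (8.66 to 49.1%), against 14.3%. In 16HBE14o- alone it was listed at 3, or 15% (3.21 to 37.9%), against 16.3%. Neither line had BRD8 at 7, or 35% (15.4 to 59.2%), against 47.7%.

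Seen from BRD8, most peaks of the domain lay on CTCF. In Calu3, 11 of 15 BRD8 peaks overlapped a CTCF peak, or 73.3% (44.9 to 92.2%), against 70.5% of the whole list. In 16HBE14o-, 8 of 9 did, or 88.9% (51.8 to 99.7%), against 65.3%. BRD8 peaks shared with the other line were 5 of 15 in Calu3, or 33.3% (11.8 to 61.6%), against 50.1% of the whole list, and 5 of 9 in 16HBE14o-, or 55.6% (21.2 to 86.3%), against 43.4%. For each of these 10 shares the whole-list value lay inside the interval, so a departure of the domain from the whole list was not detectable with so few peaks. The intervals cover counting error only and take peaks as independent, and no test was made. Some Calu3 BRD8 peaks overlap each other. As merged regions, 10 of 13 in Calu3 lay on CTCF, or 76.9% (46.2 to 95%), against 70.6% of the whole list. The Calu3 peaks shared with 16HBE14o- were at CTCF in 5 of 5 cases (47.8 to 100%), against 86.6% of all shared Calu3 peaks, which also lies inside the interval.

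**Figure D4:**
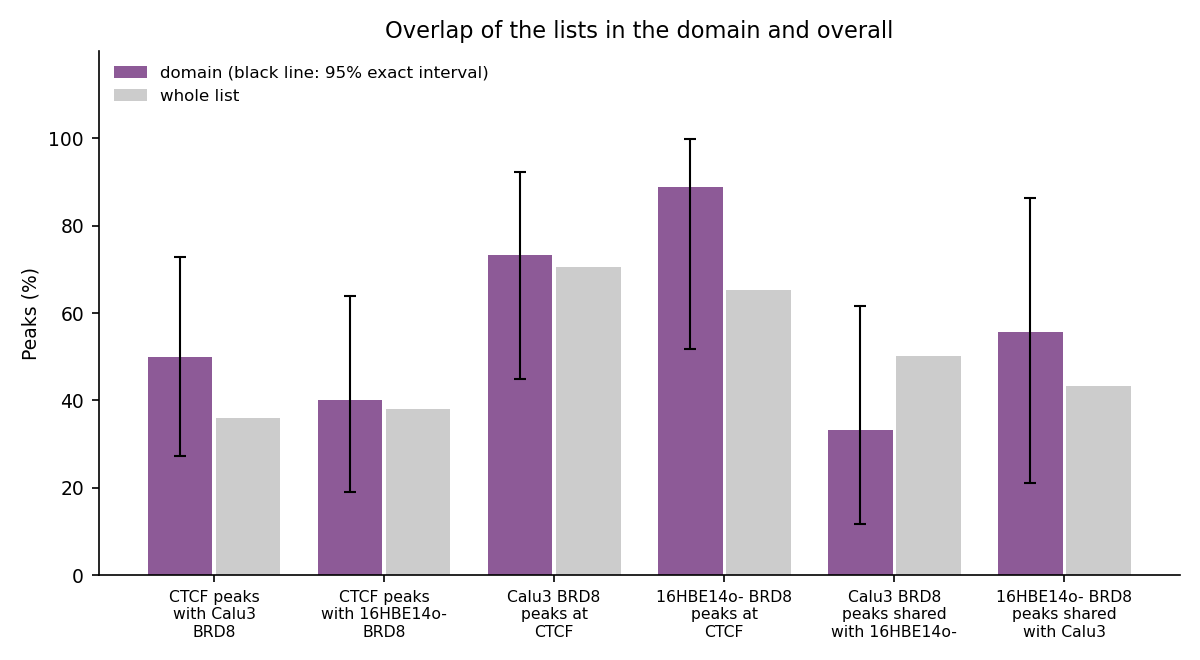
Purple bars give the percentage of peaks of the domain that overlap the other list by at least 1 bp, with the 95% exact interval as a black line, and grey bars the percentage in the whole list. The grey bar ends inside the interval in all 6 pairs.

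The summits of BRD8 and CTCF lay close where the peaks overlapped. In Calu3 the median distance was 28 bp over 11 peaks (range 5 to 259 bp), against 37 bp in the whole list. For 16HBE14o- BRD8 it was 17 bp over 8 peaks (2 to 63 bp), against 19 bp. Every BRD8 peak of the domain had the usual width of its list, 476 bp in Calu3 and 224 bp in 16HBE14o-. The greater width in Calu3 allows larger summit distances between overlapping peaks.

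CTCF peaks of the domain were of middling strength, with a median percentile of 52.5 (range 12.2 to 86) and 0 of 20 above percentile 90. Among them, those with BRD8 in both lines had a median CTCF signal of 46.5 (21.2 to 132, n = 5), against 80.1 for such peaks in the whole list. With BRD8 in Calu3 alone the median was 37.8 (22 to 47.8, n = 5, against 35.3) and in 16HBE14o- alone 41.8 (25.9 to 88.4, n = 3, against 42.5). With BRD8 in neither line it was 34.1 (19.9 to 59.2, n = 7, against 27.1). The classes overlapped widely.

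**Figure D5:**
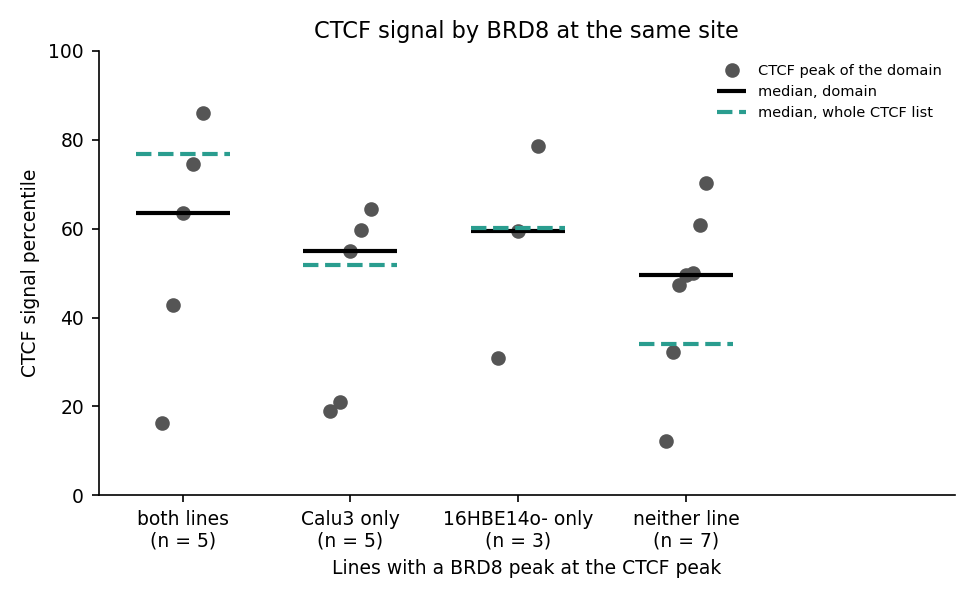
Each point is 1 of the 20 CTCF peaks of the domain, by its CTCF signal percentile and by which lines list BRD8 at it. Black lines are medians of the domain (63.4, 55, 59.5 and 49.6 from left to right), dashed green lines those of the whole CTCF list (76.7, 51.7, 60.2 and 34.1), and the classes overlap.

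BRD8 peaks of the domain spread over much of each list. In Calu3 their median percentile was 58.2 (95% interval of the median from order statistics 25.2 to 70.1, range 7.3 to 95.1), with 8 of 15 in the upper 50% of the list and 2 above percentile 90. In 16HBE14o- it was 13.8 (interval 5.08 to 72.1, range 3.96 to 76.5), with 2 of 9 in the upper 50% and 0 above percentile 90. On the rest of chromosome 8 the medians were 47.3 for Calu3 and 47.2 for 16HBE14o-. The intervals of the lines overlapped, and each held the median of the rest of the chromosome. The difference between the lines was not tested, since peaks are not replicates. At the 5 sites of both lines the Calu3 percentile was the higher at 4, by 20.4 points at MYC, 23.1 at 127.889 Mb, 26.5 at 127.579 Mb and 89.2 at 127.569 Mb. At 126.657 Mb the difference, Calu3 minus 16HBE14o-, was -7.11 points. Over all 4890 shared Calu3 peaks the median difference was -0.651 points, with 5th and 95th percentiles of -70.4 and 56.2.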

How the data were processed

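ChIP-seq peak lists for BRD8 in Calu3, BRD8 in 16HBE14o- and CTCF in Calu3 were used as deposited. They are narrowPeak tables on hg19, per the file headers, and the authors made 1 list per experiment from 2 replicates by the irreproducible discovery rate (IDR), per the series' design text. The aligner, peak caller, control library and IDR settings are not given in the sources used here. The deposited signal column was used for ranks. The deposited score runs from 540 to 1000, and a further deposited score stands in the column for q-values, below 0 for 46 peaks of 16HBE14o-. The p-value column holds no values.

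The region and the positions of MYC and PVT1, in Mb, were fixed by the definition of the region, and the members and lists were chosen with earlier results of these data known. Peaks overlapped where they shared at least 1 bp. Shares have 95% Clopper-Pearson intervals. Percentiles are ranks of signal within a list, and distances between neighbours were taken between merged regions. The rule named every BRD8 peak, the 5 strongest CTCF peaks, those within 200 kb of MYC and those with BRD8. It also named the first and last peak of each list inside the region and the nearest outside each edge. The CTCF peaks at 126.841, 127.837, 127.882 and 130.316 Mb were named after their values were seen. No test was made, because each experiment is 1 pooled list. Chromosome lengths came from GenomeInfoDb 1.38.1. The work used Python 3.11.15, numpy 2.4.6, pandas 2.3.3, scipy 1.17.1 and matplotlib 3.10.9. Overlap counts equalled those of bedtools 2.31.1. On simulated peaks built to overlap their partners every partner was recovered, which checks recovery only.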

Additional observations from a re-analysis of the deposited data

How the results depend on the processing

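Of 81 alternative values, 69 stayed within 1.5 times the reported count or within the interval of the reported share or median. The upper 50% of each list by signal left 8 Calu3 BRD8, 2 16HBE14o- BRD8 and 10 CTCF peaks, by construction fewer. Among these, 10% of CTCF peaks (1 of 10) carried 16HBE14o- BRD8, against 36.2% of the whole list cut in the same way. BRD8 in 16HBE14o- alone was at 0% (0 of 10, upper bound 30.8%), against 16.2%. BRD8 in neither line was at 60% (6 of 10), against 47.3%. Of 16HBE14o- BRD8 peaks, 50% (1 of 2) lay on CTCF, against 62.4%, and 100% (2 of 2) were shared with Calu3, against 42.7%. Where a reciprocal overlap of 50% was required, 0% of Calu3 BRD8 peaks were shared (0 of 15, upper bound 21.8%), against 4.37% of the whole list. For 16HBE14o- BRD8 peaks it was 0% (0 of 9, upper bound 33.6%), against 4.44%. A peak of 224 bp cannot cover 50% of one of 476 bp, so that rule cannot be met here. With the region shortened by 500 kb at each end, 8 Calu3 BRD8 and 11 CTCF peaks remained. Summits within 100 bp, peaks set to 200 bp, lists of equal length and merged regions left each of the 10 shares inside its interval. The alternatives for CTCF peaks with BRD8 in both lines, 1 line alone or neither were added after the data were seen. No paired analysis was possible because each list pools its 2 replicates, and for the same reason no replicate could be left out. With 9 to 20 peaks per list, the intervals of shares are wide, and the unknown depth limits what a missing peak says.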
